A study of Homo sapiens with 9 samples.

Results

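Nucleoporins, the proteins that build the nuclear pore complex, and the transport receptors that pass through it were followed in BxPC3, an established line of human pancreatic ductal adenocarcinoma cells. The members were the rows of the expression table whose gene symbol was NUP, IPO, XPO, KPNA, KPNB or TNPO followed by a number, together with XPOT. The rule found 46 of 60564 rows, of which 22 were pore proteins and 24 were transport receptors. It reads gene names and no measured value, although the gene family itself was picked with earlier results of these data known. RNA-seq had been run on 3 groups of 3 libraries. The first group was treated with 0.1 µM WB436B, a compound given here only by its code name, the second was transfected with siRNA against STAT3, and the third received vehicle. All 3 groups were the same cell line, and no non-targeting siRNA, treatment time or named solvent is given in the sources used here, so effects of transfection and of the loss of STAT3 cannot be told apart.

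The nuclear pore is a ring-shaped channel across the nuclear envelope. Its outer rings hold the Y-shaped NUP107 to NUP160 complex, its inner ring holds the NUP93 family of scaffolds, and disordered phenylalanine-glycine (FG) repeats of proteins such as NUP62, NUP98 and NUP153 fill the passage. Importins bind cargo in the cytoplasm and release it when they meet the small GTPase Ran in its GTP form in the nucleus, whereas exportins bind cargo together with Ran-GTP and release it outside. Importin alpha proteins (KPNA genes) are adaptors that read the classical nuclear localisation signal and ride on importin beta 1 (KPNB1). STAT3, a transcription factor that shuttles through the pore, is itself an importin cargo.

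Levels are given in FPKM, fragments per kilobase of transcript scaled to the size of the library, as the authors deposited them. Depth, as roughly estimated from the deposited values, lay between 15000000 and 47200000 fragments per library, and vehicle library 1 was the deepest by that estimate. STAT3 stood at 10.5, 10.9 and 10.8 FPKM in the WB436B libraries, 2.98, 2.58 and 3.02 FPKM in the STAT3 siRNA libraries and 16.4, 15.8 and 15.1 FPKM in the vehicle libraries, so the siRNA libraries held the least of their own target. The summed level of 6 epithelial markers, KRT7, KRT8, KRT18, KRT19, EPCAM and CDH1, was 1100 to 1223 FPKM in the WB436B libraries, 1180 to 1259 FPKM in the siRNA libraries and 1210 to 1266 FPKM in the vehicle libraries. Within that sum KRT19 fell under WB436B and under siRNA (log2 fold changes -1.09 and -0.50), while KRT7, KRT8 and KRT18 rose in both comparisons (0.80, 0.39 and 0.87 under WB436B). Fibroblast, leukocyte and endothelial markers summed to at most 2.52, 2.92 and 1.05 FPKM in any library, and SMAD4, which BxPC3 is known to lack, was listed at 0 in all 9.

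Fold changes below are on the log2(FPKM + 1) scale, with SE for their standard error. A gene was called higher or lower where limma, fitted across all 9 libraries and 12747 genes, gave a Benjamini-Hochberg adjusted p below 0.05. The filter, 1 FPKM or more in 3 or more libraries, kept 43 of the 46 members. NUP210L, a paralogue of NUP210, stayed at or below 0.0257 FPKM, and the importin alpha genes KPNA5 and KPNA7 stayed at or below 0.698 and 0.392 FPKM.

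Most pore proteins and most transport receptors rose under WB436B. Of 21 tested pore proteins, 16 were called higher and 2 lower, and of 22 tested receptors, 18 were called higher and 3 lower. Across all tested genes 65.9% were called in the same comparison, 24.9% higher and 41.1% lower. The median log2 fold change was 0.45 for pore proteins and 0.61 for receptors, against -0.13 for all tested genes. In bulk RNA a lower level can mean fewer cells with the transcript or less transcript per cell, which cannot be told apart here.

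Under STAT3 siRNA most receptors rose, as did 12 of the 21 tested pore proteins. The other pore proteins included 2 called lower, and 17 receptors were called higher and 1 lower, beside 29.8% higher and 22.3% lower among all tested genes, 52.1% in all. The median log2 fold change was 0.20 for pore proteins, 0.38 for receptors and 0.06 for all tested genes. Both comparisons use the same 3 vehicle libraries, so a chance deviation of those libraries enters both. Among genes that reached 5 FPKM in 3 or more libraries, a set closer to the members in level, WB436B raised 34.8% of 7042 genes, against 80% of 20 pore proteins and 81.8% of 22 receptors. The same figures for STAT3 siRNA were 33.8%, 60% and 77.3%. NUP35 and IPO11 passed this filter through their WB436B libraries alone. NUP62CL, called lower under WB436B, did not pass it. The filter thus set part of the members' shares, which are a description only.

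**Figure D1:**
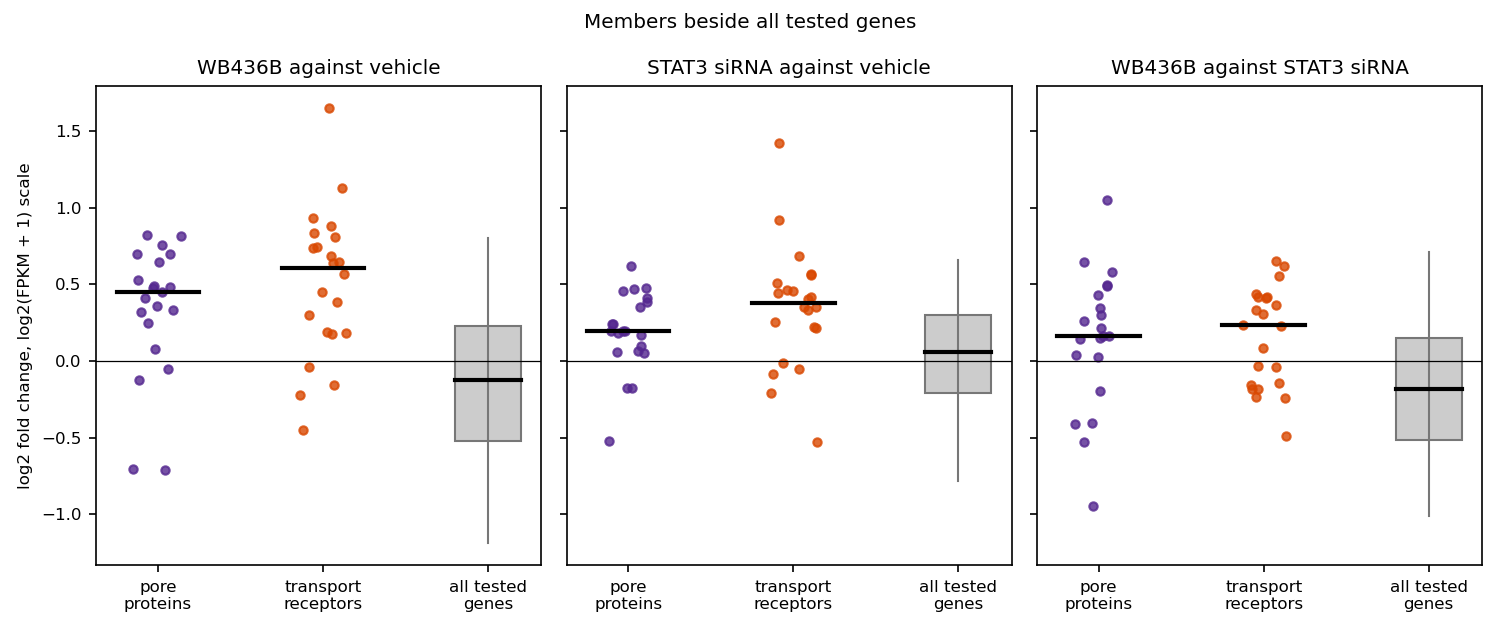
Log2 fold changes on the log2(FPKM + 1) scale of 21 pore proteins and 22 transport receptors (1 point per gene, spread sideways for legibility), beside all 12747 tested genes, in the 3 comparisons. Thick lines are medians, the grey box spans the percentiles 25 to 75 of all tested genes and the thin grey line the percentiles 5 to 95. The members' medians, 0.45 and 0.61 in the left panel, lie above the box's upper edge at 0.23.

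Summed over members, the pore proteins came to 276 ± 9.02 FPKM under WB436B, 250 ± 1.03 FPKM under STAT3 siRNA and 207 ± 7.80 FPKM in vehicle (SD, n = 3 each). The receptors came to 515 ± 1.02 FPKM under WB436B, 450 ± 15.2 FPKM under siRNA and 382 ± 8.57 FPKM in vehicle. The ratio of summed receptor to pore FPKM was 1.87 ± 0.06 under WB436B, 1.8 ± 0.05 under siRNA and 1.85 ± 0.03 in vehicle, and the libraries of the 3 groups overlapped. This ratio leans on KPNA2, the largest receptor, which averaged 71.9 FPKM under WB436B, 58.0 FPKM under siRNA and 84.1 FPKM in vehicle. It does not describe the typical member, since the median log2 fold change was higher for receptors than for pore proteins in both comparisons against vehicle. The receptors were the more abundant class gene by gene, with a median tested member at 17.7 FPKM under WB436B, 16.1 FPKM under siRNA and 11.5 FPKM in vehicle, against 11.8, 9.64 and 8.85 FPKM for the pore proteins. In vehicle the order ran from KPNA2 at 84.1 ± 1.30 FPKM, through KPNB1 at 34.4 ± 4.51 FPKM and IPO7 at 28.6 ± 0.488 FPKM, down to NUP35 at 2.96 ± 0.183 FPKM among tested members. KPNA2 stood clear of the rest, whereas the vehicle libraries overlapped in 30 of the 42 neighbouring pairs of tested members in this order.

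**Figure D2:**
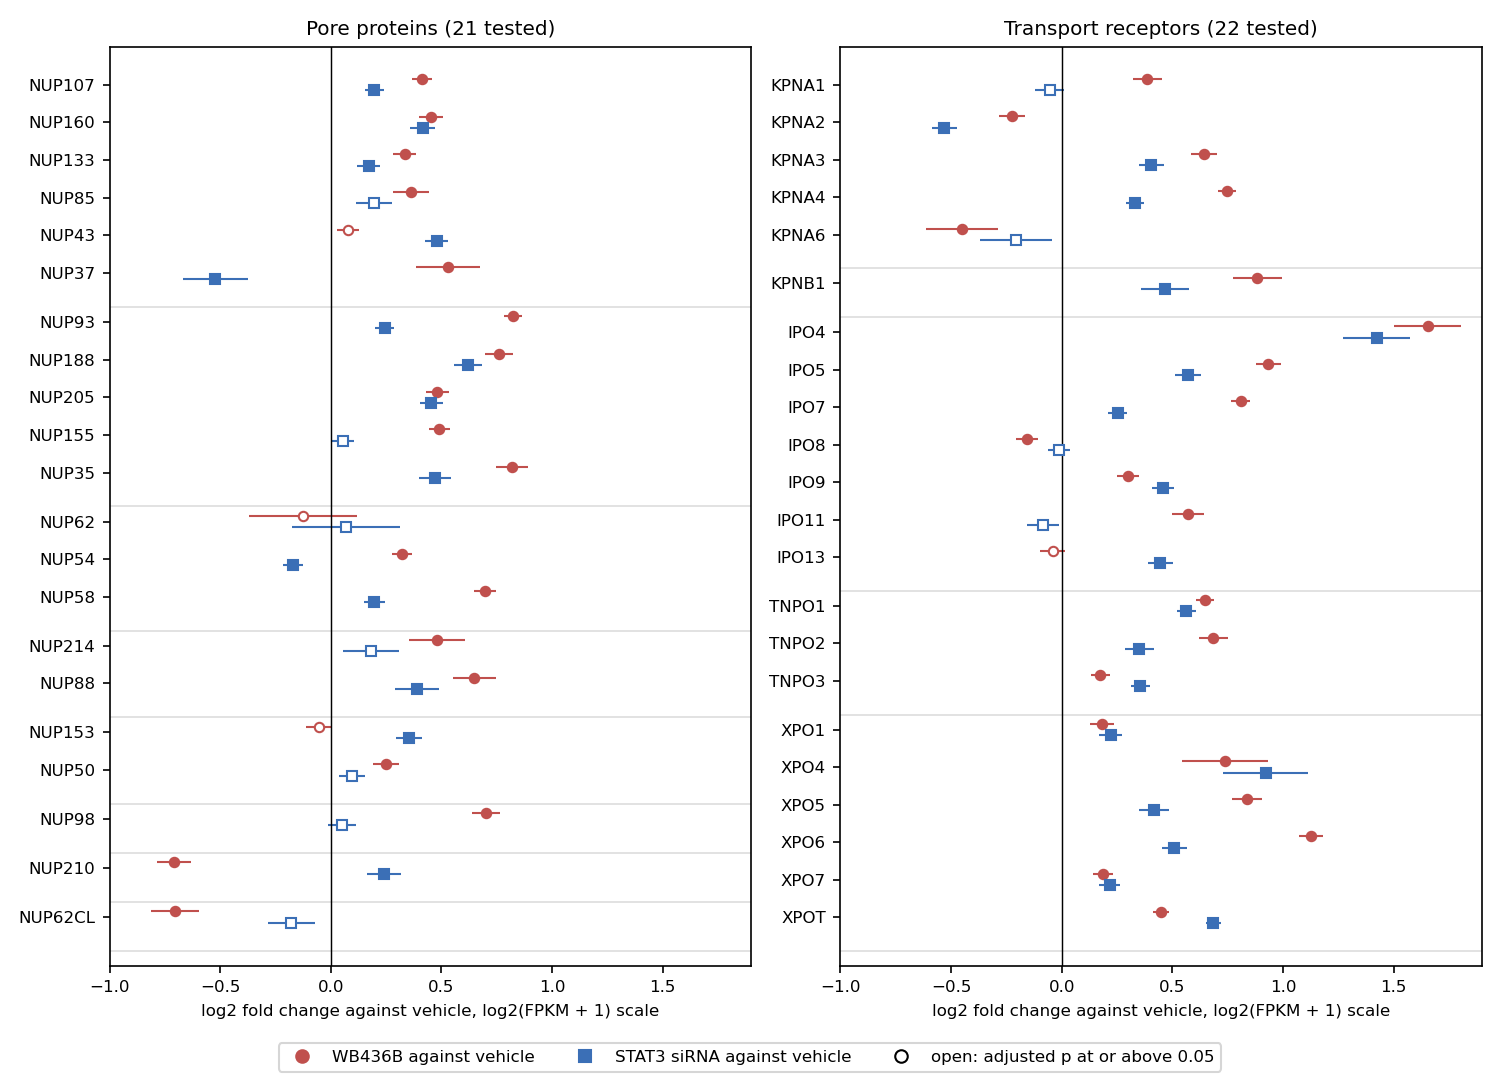
Log2 fold change against vehicle of each tested member (x axis, log2(FPKM + 1) scale; points with ± 1 SE), with pore proteins on the left and transport receptors on the right, grouped by role. Red circles are WB436B, blue squares STAT3 siRNA, and open symbols have an adjusted p at or above 0.05. NUP37 (0.53 and -0.52) and NUP210 (-0.71 and 0.24) have the pair of symbols on opposite sides of zero, and KPNA2 is the receptor with both filled symbols below zero.

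Promoters are shown for the STAT motif, since STAT3 was the siRNA target, and for the E-box and NRF1 motifs, which were picked for display after their matches were seen, so their distribution over members is a description only. RefSeq sequences on GRCh38.p14, from 250 bases before to 50 after each gene's start, matched 40 of the 46 members. KPNA4, KPNA5, KPNA7, KPNB1, NUP43 and XPO7 were not matched. Both strands were searched, and no matches of different motifs overlapped. Shares of all promoters cover genes whether expressed here or not, and a share among expressed genes alone was not computed. The E-box CACGTG, the motif of MYC and related factors, was in 6 of 40 member promoters (15%), against 7.43% of 27305 promoters. The 6 genes were called higher under WB436B, as were 31 of the 40 matched members in all, and 5 of them were also called higher under siRNA, NUP50 being the exception. Capitals mark the motif, and each distance runs from its first base to the RefSeq start.
IPO4 (chr14:24188828-24188857, minus strand, 29 bases before the start): tgtcagaacctcCACGTGctgtccctcccc
IPO7 (chr11:9384487-9384546, plus strand, 138 bases before the start): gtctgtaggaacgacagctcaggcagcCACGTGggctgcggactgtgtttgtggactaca
KPNA3 (chr13:49792731-49792760, minus strand, 66 bases before the start): accgcccccggtCACGTGtcgccagcctcc
NUP188 (chr9:128947610-128947639, plus strand, 77 bases before the start): ccgcggcaacgtCACGTGacgaaatccccg
NUP188 (chr9:128947642-128947698, plus strand, 30 bases before the start): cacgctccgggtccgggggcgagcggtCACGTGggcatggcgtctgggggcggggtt
NUP50 (chr22:45163739-45163768, plus strand, 174 bases before the start): cgttgccggcccCACGTGagccgacgcccc
TNPO2 (chr19:12723939-12723968, minus strand, 24 bases before the start): ggcggctttctgCACGTGtttctcagccca
NUP188 was the member promoter with a pair of E-boxes. A match describes these letters and is not shown to be a bound site.

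The STAT motif TTCNNNGAA was in 4 of 40 member promoters (10%), a share close to the 7.88% of all promoters. The 4 genes had no common direction: NUP35 rose in both comparisons, NUP153 was called higher under siRNA and not under WB436B, IPO11, with its match after the gene's start, was called higher under WB436B and not under siRNA, and IPO8 was called lower under WB436B and not under siRNA. The matches of the other three lie before the start, with the motif in capitals.
IPO8 (chr12:30695999-30696027, minus strand, 148 bases before the start): gcgggttcctTTCCGGGAAagaagcctag
NUP153 (chr6:17707053-17707081, minus strand, 146 bases before the start): ccctcttcctTTCCGAGAAgccgcgttcc
NUP35 (chr2:183124193-183124253, plus strand, 225 bases before the start): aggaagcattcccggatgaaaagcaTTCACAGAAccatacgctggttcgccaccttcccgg
The NRF1 motif, in capitals below, was in 3 pore protein promoters and in no receptor promoter among the 40 (7.5%, against 1.36% of all promoters).
NUP107 (chr12:68686884-68686913, plus strand, 84 bases before the start): ggctgaagtcGCGCATGCGCtagatgggaa
NUP50 (chr22:45163859-45163888, plus strand, 56 bases before the start): agggagctggGCGCATGCGCcgcgtaaggg
NUP62 (chr19:49929544-49929573, minus strand, 59 bases before the start): cgggcccagtGCGCATGCGCagccgcgcgc
The calls on these 3 genes were not alike: NUP107 rose in both comparisons, NUP50 rose under WB436B and NUP62 was not called in either. The E2F motif TTTGGCGC was in the NUP155 promoter alone (2.5%, against 0.659%), TTTCCCGC was in none, against 1.66% of all promoters, and CCAAT was in 20 of 40 (50%, against 35.7%).

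The inner ring of the pore rose as a whole under WB436B. All 5 of its members were called higher, with log2 fold changes of 0.48 to 0.82, and 4 of the 5 were called higher under STAT3 siRNA, NUP155 being the exception. Of all tested genes, 24.9% were called higher under WB436B and 29.8% under siRNA. NUP93, which anchors the channel proteins to the scaffold, had 12.3, 12.7 and 12.8 FPKM in the WB436B libraries, 8.06, 8.19 and 7.97 FPKM in the siRNA libraries and 6.46, 6.72 and 6.83 FPKM in the vehicle libraries. The 3 groups did not overlap, and WB436B stood well above both others. The log2 fold change against vehicle was 0.82 for WB436B (SE 0.041, adjusted p = 6.84e-07) and 0.24 for siRNA (SE 0.041, adjusted p = 0.00135).

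NUP188 and NUP205 are large, related scaffolds of the same ring. NUP188, whose promoter held the E-boxes above, had 28.1, 28.8 and 30.6 FPKM under WB436B, 26.3, 27.5 and 25.3 FPKM under siRNA and 17.8, 17.3 and 15.4 FPKM in vehicle. Both treatments lay far above vehicle, with log2 fold changes of 0.76 (adjusted p = 1.04e-05) and 0.62 (adjusted p = 7.35e-05), and the difference between them was not called (0.14, adjusted p = 0.0759), except under median-of-ratios scaling (0.37, adjusted p = 0.00103) and without vehicle library 3 (adjusted p = 0.0347). NUP205 had 31.5, 32.7 and 33.3 FPKM under WB436B, 31.8, 32.0 and 31.9 FPKM under siRNA and 24.0, 23.9 and 21.2 FPKM in vehicle. The treated groups overlapped each other and lay above every vehicle library, by 0.48 and 0.45 on the log2 scale (adjusted p = 6.31e-05 and 1.74e-04).

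NUP35, a small member that touches the membrane, had 5.69, 6.22 and 6.0 FPKM under WB436B, 4.47, 4.02 and 4.95 FPKM under siRNA and 2.74, 3.05 and 3.07 FPKM in vehicle. The groups formed 3 separate steps, with vehicle lowest. Its mean under WB436B was 2.02 times that of vehicle, which is 0.82 on the log2 scale (SE 0.073, adjusted p = 1.65e-05), and 0.47 under siRNA (adjusted p = 7.99e-04). NUP155, which also contacts the membrane, was called higher under WB436B alone (0.49, adjusted p = 3.31e-05; siRNA 0.06, adjusted p = 0.369), and its difference between the treatments was called (0.43, adjusted p = 8.16e-05).

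The Y complex, the coat of the outer rings, rose in part. Under WB436B 5 of its 6 members were called higher, and under siRNA 4 were called higher and NUP37 lower. For all tested genes the shares were 24.9% higher under WB436B, and 29.8% higher and 22.3% lower under siRNA. NUP160, a long arm of the Y, had 15.7, 16.2 and 17.3 FPKM under WB436B, 16.3, 15.8 and 15.8 FPKM under siRNA and 12.5, 11.7 and 10.9 FPKM in vehicle. The treated groups overlapped and vehicle lay below both, with log2 fold changes of 0.45 (adjusted p = 1.33e-04) and 0.41 (adjusted p = 3.92e-04). NUP107 and NUP133, which form the stem, were called higher in both comparisons, by 0.41 and 0.33 under WB436B and 0.20 and 0.17 under siRNA. The siRNA call on NUP133 was lost under median-of-ratios scaling and without siRNA library 1 or 3 or vehicle library 1 or 3 (adjusted p = 0.0537 to 0.129). NUP85 was called higher under WB436B (0.36, adjusted p = 0.00391) and not under siRNA (0.20, adjusted p = 0.0709), where it was called with equal totals (adjusted p = 0.0201) and without vehicle library 3 (adjusted p = 0.0387).

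NUP43 and NUP37, small propeller-shaped proteins of the Y complex, went different ways. NUP43 had 14.8, 15.6 and 15.8 FPKM under WB436B, 20.8, 19.4 and 21.9 FPKM under siRNA and 14.6, 14.8 and 14.3 FPKM in vehicle. The siRNA libraries stood apart, above all 6 others, at 0.48 on the log2 scale (SE 0.051, adjusted p = 1.03e-04), while WB436B gave 0.08 (adjusted p = 0.216), or 0.23 and a call under median-of-ratios scaling (adjusted p = 0.00359). NUP37 had 11.4, 14.6 and 16.4 FPKM under WB436B, 7.13, 5.62 and 6.01 FPKM under siRNA and 10.0, 10.5 and 7.85 FPKM in vehicle. Every WB436B library lay above, and every siRNA library below, the 3 vehicle libraries. The log2 fold changes were 0.53 (SE 0.15, adjusted p = 0.0115) and -0.52 (SE 0.15, adjusted p = 0.0161), and their difference was 1.05 (adjusted p = 2.83e-04). The siRNA call on NUP37 was lost when siRNA library 2, vehicle library 1 or vehicle library 2 was left out (adjusted p = 0.0555, 0.0519 and 0.0562).

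The channel proteins form a trimer of NUP62, NUP54 and NUP58, whose FG repeats face the passage. NUP58 had 10.6, 10.9 and 11 FPKM under WB436B, 7.69, 7.24 and 7.19 FPKM under siRNA and 6.17, 6.67 and 6.09 FPKM in vehicle, with no overlap between groups and log2 fold changes of 0.70 (adjusted p = 4.09e-06) and 0.20 (adjusted p = 0.00921). NUP54 had 11.9, 11.3 and 11.9 FPKM under WB436B, 8.28, 7.69 and 8.13 FPKM under siRNA and 9.16, 9.0 and 9.39 FPKM in vehicle. Like NUP37, it lay above vehicle in every WB436B library and below it in every siRNA library, with log2 fold changes of 0.32 (adjusted p = 2.75e-04) and -0.17 (adjusted p = 0.0116). The siRNA call on NUP54 was lost when libraries were scaled to equal totals (adjusted p = 0.0896). NUP62, the third partner, was not called in any comparison. Its values were 16.4, 17.2 and 9.51 FPKM under WB436B, 11.3, 19.5 and 18.7 FPKM under siRNA and 15.8, 15.2 and 14.9 FPKM in vehicle, so WB436B library 3 and siRNA library 1 lay apart from their groups. In GENCODE release 29, 21.1% of the exon bases of NUP62 are shared with other genes, among them ATF5, which stood at 18.8 to 23.6 FPKM under WB436B, 28.3 to 31.1 FPKM under siRNA and 12.6 to 14.9 FPKM in vehicle. Whether shared fragments entered the NUP62 values was not tested.

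NUP98 is made as a precursor that is cut into NUP98, an FG protein, and NUP96, a part of the Y complex. It had 18.7, 19.5 and 21.4 FPKM under WB436B, 13.0, 12.1 and 11.8 FPKM under siRNA and 11.8, 12.4 and 11.2 FPKM in vehicle. WB436B stood alone above overlapping siRNA and vehicle libraries, at 0.70 on the log2 scale (SE 0.063, adjusted p = 1.80e-05) against 0.05 for siRNA (adjusted p = 0.531), and the difference between the treatments was called (0.65, adjusted p = 3.54e-05). On the cytoplasmic side, NUP214 and its partner NUP88, which take part in the release of export cargo, were both called higher under WB436B (0.48 and 0.65, adjusted p = 0.00972 and 4.54e-04). Under siRNA NUP88 was called higher (0.39, adjusted p = 0.0106) and NUP214 was not (0.18, adjusted p = 0.267). NUP88 shares 18.7% of its exon bases with RPAIN and RABEP1. RABEP1 stood at 11.3 to 12.35 FPKM under WB436B, 6.87 to 7.74 FPKM under siRNA and 7.87 to 8.10 FPKM in vehicle. RPAIN stood at 1.88 to 2.33, 3.01 to 3.53 and 3.10 to 3.39 FPKM in the same order. Whether shared fragments entered the NUP88 values was not tested.

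The nuclear basket, on the inner face of the pore, is represented by NUP153 and NUP50. NUP153 had 13.6, 12.8 and 14.7 FPKM under WB436B, 19.8, 18.0 and 17.7 FPKM under siRNA and 14.3, 14.4 and 14.0 FPKM in vehicle. The siRNA libraries lay above all others and the WB436B and vehicle libraries overlapped, with log2 fold changes of -0.05 for WB436B (adjusted p = 0.447) and 0.35 for siRNA (adjusted p = 0.00119). NUP50, which helps to recycle importin alpha, was called higher under WB436B (0.25, adjusted p = 0.00571), while siRNA gave 0.10 (adjusted p = 0.210).

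Against the general direction, NUP210 and NUP62CL were lower under WB436B. NUP210, a membrane-spanning nucleoporin whose level varies between tissues, had 4.48, 5.12 and 5.14 FPKM under WB436B, 10.2, 10.9 and 10.1 FPKM under siRNA and 9.37, 8.95 and 7.70 FPKM in vehicle. All WB436B libraries lay below, and all siRNA libraries above, the vehicle libraries. Its mean under WB436B was 56.6% of that of vehicle, -0.71 on the log2 scale (SE 0.077, adjusted p = 5.83e-05), against 0.24 under siRNA (SE 0.077, adjusted p = 0.0299). The siRNA call on NUP210 was lost under median-of-ratios scaling (adjusted p = 0.101), with no filter (0.0663), and without siRNA library 1, 2 or 3 or vehicle library 3 (adjusted p = 0.0511 to 0.0898). NUP62CL, a shorter paralogue of NUP62, had 1.98, 2.17 and 1.37 FPKM under WB436B, 3.27, 3.01 and 2.91 FPKM under siRNA and 3.77, 3.71 and 3.32 FPKM in vehicle. The WB436B libraries were lowest without overlap, with a log2 fold change of -0.70 against vehicle (adjusted p = 4.26e-04), and siRNA gave -0.18 (adjusted p = 0.195).

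**Figure D3:**
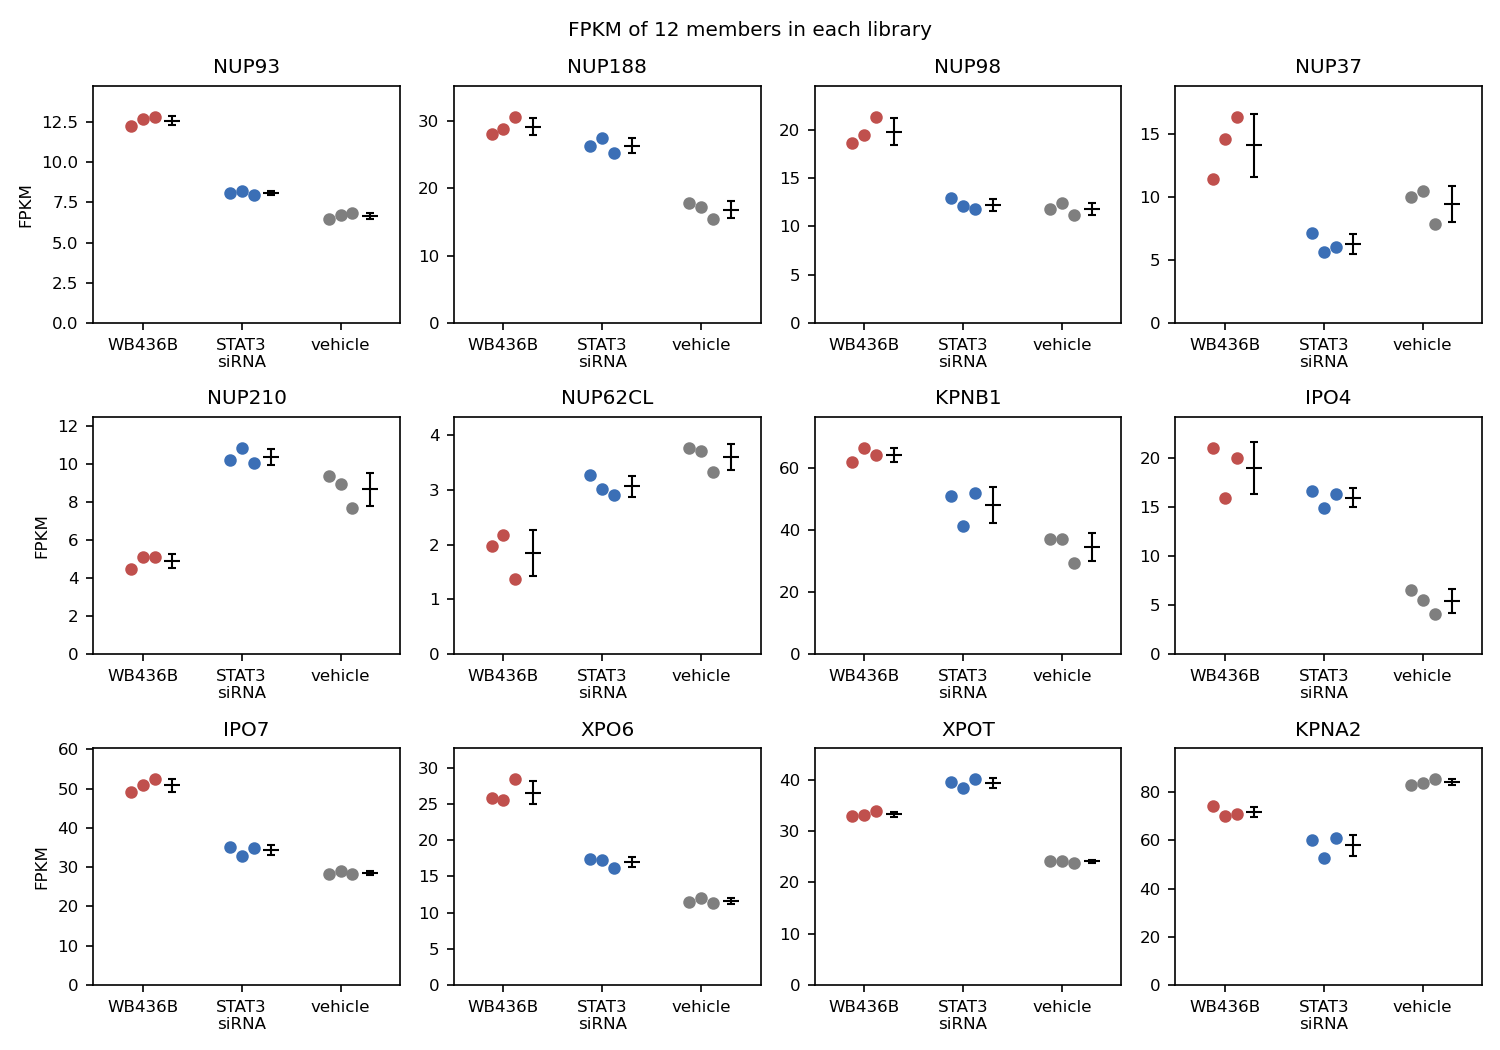
FPKM (y axis from 0, own scale per panel) of 12 members in each of the 9 libraries, as points, with the group mean and ± 1 SD beside them, for WB436B, STAT3 siRNA and vehicle. WB436B has the highest mean for NUP93, NUP188, NUP98, NUP37, KPNB1, IPO4, IPO7 and XPO6, although for IPO4 its libraries overlap those of siRNA. WB436B has the lowest mean for NUP210 and NUP62CL. The highest mean is under siRNA for XPOT and in vehicle for KPNA2.

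Among the transport receptors, importin beta 1, the carrier of the classical import pathway, had the second highest mean level of the members in vehicle. KPNB1 had 62.0, 66.4 and 64.0 FPKM in the WB436B libraries, 50.8, 41.3 and 51.8 FPKM in the siRNA libraries and 37.1, 37.0 and 29.2 FPKM in the vehicle libraries. The 3 groups did not overlap, with WB436B highest and vehicle lowest. Its mean under WB436B was 1.86 times that of vehicle, 0.89 on the log2 scale (SE 0.11, adjusted p = 1.34e-04), and under siRNA 1.39 times, 0.47 on the log2 scale (SE 0.11, adjusted p = 0.00745). An exact permutation test over libraries gave p = 0.1 in each comparison of KPNB1, two-sided, the smallest value that 3 against 3 libraries allow.

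The importin alpha adaptors that KPNB1 carries did not move together. KPNA2, the dominant adaptor here and one whose level is known to follow cell proliferation, had 74.3, 70.3 and 71.0 FPKM under WB436B, 60.2, 52.9 and 60.9 FPKM under siRNA and 83.0, 83.9 and 85.5 FPKM in vehicle. Vehicle was highest and siRNA lowest, with no overlap. The log2 fold change was -0.22 under WB436B (SE 0.057, adjusted p = 0.00768) and -0.53 under siRNA (SE 0.057, adjusted p = 1.05e-04), and the exact permutation p was 0.1 in each comparison. KPNA2 was the receptor called lower in both comparisons. Its call under WB436B was lost with median-of-ratios scaling (log2 fold change -0.064, adjusted p = 0.351).

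KPNA4 and KPNA3, a closely related pair of adaptors, rose in both comparisons. KPNA4 had 23.3, 23.9 and 23.3 FPKM under WB436B, 17.9, 16.6 and 17.8 FPKM under siRNA and 13.5, 13.8 and 13.6 FPKM in vehicle. WB436B stood highest and vehicle lowest without overlap, by 0.75 (adjusted p = 1.17e-06) and 0.33 (adjusted p = 2.46e-04). KPNA3, whose promoter held an E-box, had 16.7, 17.5 and 16.9 FPKM under WB436B, 15.6, 13.8 and 13.6 FPKM under siRNA and 10.9, 10.4 and 10.4 FPKM in vehicle, with log2 fold changes of 0.64 and 0.41 (adjusted p = 1.65e-05 and 4.68e-04). KPNA1 was called higher under WB436B (0.39, adjusted p = 8.38e-04) and gave -0.05 under siRNA (adjusted p = 0.529). KPNA1 shares 16.3% of its exon bases with an antisense gene that stood at or below 0.399 FPKM in every library.

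KPNA6 was called lower under WB436B, but 1 library carried much of the difference. Its values were 19.3, 18.2 and 11.3 FPKM under WB436B, 18.6, 19.4 and 18.8 FPKM under siRNA and 22.7, 22.1 and 21.3 FPKM in vehicle. WB436B library 3 was far below its group, and all WB436B libraries were below all vehicle libraries. The log2 fold change was -0.45 (SE 0.16, adjusted p = 0.0372) with all libraries and -0.22 without WB436B library 3 (adjusted p = 0.00584). The call was lost with no filter, equal totals, median-of-ratios scaling or only the groups compared, and without any one of the siRNA or vehicle libraries (adjusted p = 0.0517 to 0.149). Under siRNA every library was also below every vehicle library, by -0.21 on the log2 scale, which was not called (adjusted p = 0.316) but was called without WB436B library 3 (adjusted p = 0.00619) and with only the groups compared (adjusted p = 0.00946).

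Within the adaptor pool, KPNA2 took a smaller share in both treated groups than in vehicle, with no overlap. KPNA2 made up 49.5% ± 1.42 of the summed importin alpha FPKM under WB436B, 47.9% ± 1.54 under siRNA and 58.7% ± 0.39 in vehicle (SD, n = 3 each). KPNA4 made up 16.2% ± 0.55 of it under WB436B, 14.4% ± 0.09 under siRNA and 9.50% ± 0.11 in vehicle. The sum itself was 145 ± 5.05 FPKM under WB436B, 121 ± 5.77 FPKM under siRNA and 143 ± 1.38 FPKM in vehicle. The totals under WB436B and in vehicle differed by less than the spread between libraries, and the siRNA libraries held less than either, without overlap.

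**Figure D4:**
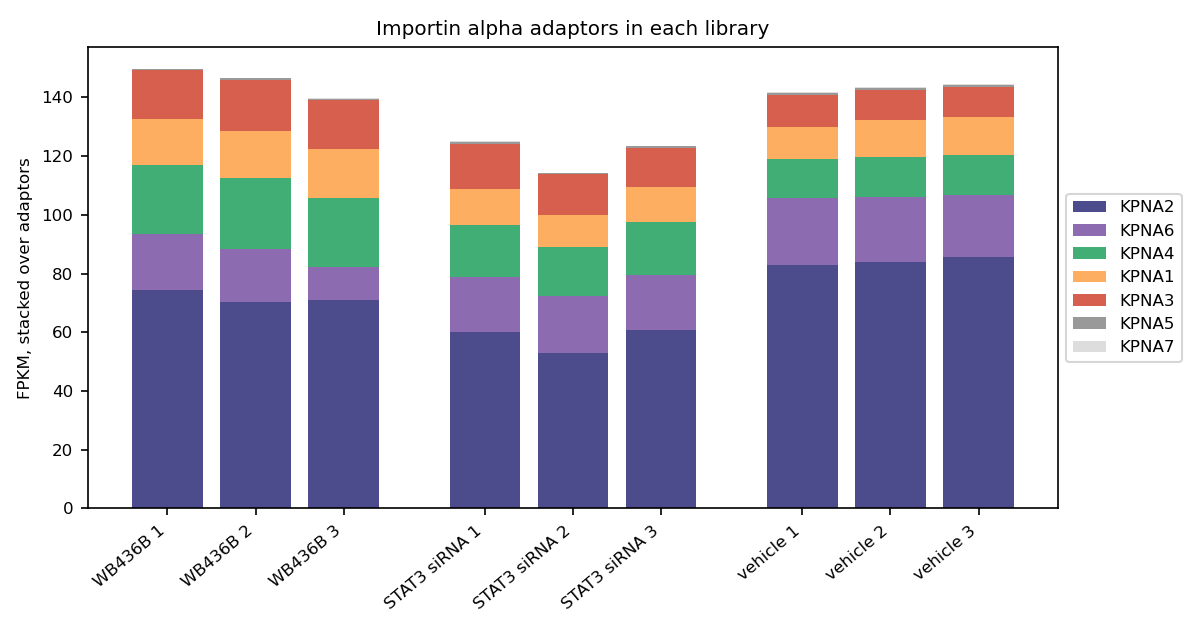
FPKM of the 7 importin alpha adaptors (y axis, stacked from 0) in each of the 9 libraries, in the order WB436B, STAT3 siRNA and vehicle. The lowest segment, KPNA2, is largest in vehicle (83.0 to 85.5 FPKM), and the whole bars are shortest under siRNA (114 to 125 FPKM).

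The importins that bind cargo directly were mostly higher, 5 of 7 in each comparison against vehicle. The shares of all tested genes called higher were 24.9% under WB436B and 29.8% under siRNA. IPO4, a carrier of histones and ribosomal proteins, had 21, 15.9 and 20.0 FPKM under WB436B, 16.6, 14.8 and 16.3 FPKM under siRNA and 6.57, 5.53 and 4.08 FPKM in vehicle. The treated groups overlapped each other and lay far above vehicle. Its fold changes were the largest of the tested members in both comparisons, 1.65 under WB436B (SE 0.15, adjusted p = 1.88e-05) and 1.42 under siRNA (SE 0.15, adjusted p = 9.52e-05), with means 3.52 and 2.96 times that of vehicle. In GENCODE release 29, 70.1% of the exon bases of IPO4 are shared with other genes, among them the readthrough gene AL136295.4, listed at 3.24, 8.01 and 4.29 FPKM under WB436B, 3.22, 6.70 and 3.58 FPKM under siRNA and 2.26, 2.97 and 4.71 FPKM in vehicle. IPO4 was lowest within each treated group in library 2, where that gene was highest, and how the authors' counting split such fragments was not tested.

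IPO5 and IPO7 import ribosomal proteins and histones. IPO5 had 11.1, 12.8 and 11.8 FPKM under WB436B, 9.45, 8.75 and 8.88 FPKM under siRNA and 5.70, 5.91 and 5.63 FPKM in vehicle, 3 separate steps with log2 fold changes of 0.93 (adjusted p = 2.15e-06) and 0.57 (adjusted p = 7.97e-05). IPO7, whose promoter held an E-box, had 49.0, 50.9 and 52.4 FPKM under WB436B, 35.2, 32.8 and 34.9 FPKM under siRNA and 28.3, 29.1 and 28.3 FPKM in vehicle. WB436B was highest and vehicle lowest without overlap, by 0.81 (adjusted p = 9.50e-07) and 0.25 (adjusted p = 0.00136). IPO9, a histone carrier, was called higher in both comparisons (0.30 for WB436B and 0.46 for siRNA, adjusted p = 7.40e-04 and 1.16e-04).

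The other importins split between the treatments. IPO11, which carries ubiquitin-conjugating enzymes, was called higher under WB436B (0.57, adjusted p = 1.65e-04) and gave -0.08 under siRNA (adjusted p = 0.374), with 22.6% of its exon bases shared with LRRC70 and KIF2A. IPO13, which carries cargo in both directions, was called higher under siRNA (0.45, adjusted p = 2.73e-04) and gave -0.04 under WB436B (adjusted p = 0.549). IPO8, known for carrying Argonaute proteins, had 9.87, 10.4 and 10.6 FPKM under WB436B, 12.2, 11.1 and 11.2 FPKM under siRNA and 11.7, 11.8 and 11.3 FPKM in vehicle. Its WB436B libraries were narrowly below the other 6, with a log2 fold change of -0.16 against vehicle (adjusted p = 0.0232), and the call was lost under several alternatives, with median-of-ratios scaling giving -0.0067 (adjusted p = 0.916), and leaving out WB436B library 1, vehicle library 1 or vehicle library 2 giving adjusted p = 0.0785, 0.0602 and 0.0691.

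All 3 transportins were called higher in both comparisons, beside 24.9% of all tested genes under WB436B and 29.8% under siRNA. TNPO1 and TNPO2, near relatives that import RNA-binding proteins with a proline-tyrosine signal, rose by 0.65 and 0.69 under WB436B (adjusted p = 2.74e-06 and 2.51e-05) and by 0.56 and 0.35 under siRNA (adjusted p = 1.43e-05 and 0.00214). TNPO1 had 17.1, 17.3 and 17.9 FPKM under WB436B, 16.6, 15.9 and 16.7 FPKM under siRNA and 10.9, 11 and 10.4 FPKM in vehicle, with both treated groups far above vehicle. Between the treatments TNPO1 differed by 0.08 (adjusted p = 0.109), and by 0.31 under median-of-ratios scaling, where it was called (adjusted p = 2.84e-04). TNPO3, which imports splicing factors of the serine-arginine family, rose by 0.17 under WB436B and 0.36 under siRNA (adjusted p = 0.00617 and 1.90e-04).

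All 6 exportins were called higher in both comparisons, beside 24.9% of all tested genes under WB436B and 29.8% under siRNA. XPO1, the general exporter of proteins with a leucine-rich signal and the target of the drug selinexor, had 21.4, 22.3 and 22.1 FPKM under WB436B, 23.0, 20.8 and 24.0 FPKM under siRNA and 19.3, 19.3 and 19.1 FPKM in vehicle. The treated groups overlapped and lay slightly above a very tight vehicle group. The log2 fold changes were 0.18 (SE 0.054, adjusted p = 0.0155) and 0.22 (SE 0.054, adjusted p = 0.00850), among the smallest called. The exact permutation p of XPO1 was 0.1 against vehicle for each treatment and 0.6 between the treatments. Quantile normalization ended the WB436B calls on XPO1, XPO7 and TNPO3 (adjusted p = 0.174, 0.217 and 0.204), and the XPO1 call was also lost without WB436B library 2 (adjusted p = 0.0502).

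XPO6 and XPO5 had larger fold changes than XPO1. XPO6, the exporter of actin, had 25.7, 25.5 and 28.4 FPKM under WB436B, 17.4, 17.3 and 16.1 FPKM under siRNA and 11.5, 12.1 and 11.3 FPKM in vehicle, 3 groups far apart. Its log2 fold changes were 1.13 (SE 0.056, adjusted p = 6.67e-07) and 0.51 (SE 0.056, adjusted p = 1.22e-04). XPO5, which exports microRNA precursors, had 13.9, 13.1 and 14.3 FPKM under WB436B, 10.8, 10.2 and 9.10 FPKM under siRNA and 7.46, 7.46 and 6.89 FPKM in vehicle, with no overlap and log2 fold changes of 0.84 and 0.42 (adjusted p = 9.90e-06 and 0.00108).

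XPOT and XPO4 had their highest means under siRNA. XPOT, the exporter of transfer RNA, had 32.8, 33.1 and 33.8 FPKM under WB436B, 39.4, 38.3 and 40.1 FPKM under siRNA and 24.2, 24.2 and 23.8 FPKM in vehicle. The groups were tight and separate, with log2 fold changes of 0.45 (SE 0.035, adjusted p = 8.09e-06) and 0.69 (SE 0.035, adjusted p = 2.09e-06). XPO4, which exports the translation factor eIF5A, had 6.95, 7.45 and 7.24 FPKM under WB436B, 8.38, 8.12 and 8.48 FPKM under siRNA and 2.39, 5.17 and 4.70 FPKM in vehicle. Vehicle library 1 lay far below the other 2, and leaving it out moved the log2 fold change under WB436B to 0.47, against 0.74 with it, and under siRNA to 0.65, against 0.92, with all 4 values called. Between the treatments the XPO4 difference was -0.18, not called with all libraries (adjusted p = 0.427) and called without vehicle library 1 (adjusted p = 0.0162) or with only the groups compared (adjusted p = 0.0142). The XPOT difference was called (-0.24, adjusted p = 4.46e-04), a call lost under median-of-ratios scaling. XPO7, an exportin with a wide range of cargo, rose by 0.19 under WB436B and 0.22 under siRNA (adjusted p = 0.00682 and 0.00453).

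Set against each other, WB436B gave higher levels than STAT3 siRNA for 10 pore proteins and 11 receptors and lower levels for 4 and 5. Among all tested genes 64.1% were called, 20.0% higher and 44.1% lower under WB436B than under siRNA. The median log2 difference was 0.17 for pore proteins, 0.23 for receptors and -0.18 for all tested genes. Median-of-ratios scaling moved the median of all tested genes to 0.00 and gave 16 pore proteins and 15 receptors higher and 4 and 1 lower, so the direction of small differences between the treatments depended on the scaling. The genes it added to those called higher were NUP160, NUP85, NUP214, NUP188, NUP205, NUP50, IPO4, TNPO1, XPO1 and XPO7.

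The largest differences between the treatments were at NUP37 (1.05, adjusted p = 2.83e-04), NUP210 (-0.95, adjusted p = 1.37e-05), IPO11 (0.66, adjusted p = 8.38e-05), NUP98 (0.65, adjusted p = 3.54e-05), XPO6 (0.62, adjusted p = 2.42e-05) and NUP93 (0.58, adjusted p = 6.50e-06). Higher under siRNA than under WB436B were NUP43, NUP153, NUP210, NUP62CL, IPO8, IPO9, IPO13, TNPO3 and XPOT. Of these, the differences of IPO8, IPO9 and TNPO3 (-0.14, -0.16 and -0.18) turned positive under median-of-ratios scaling (0.070, 0.058 and 0.046, none called). The NUP62CL difference was not called under quantile normalization. Read gene by gene against vehicle, 9 pore proteins and 16 receptors were called higher under both treatments, KPNA2 lower under both, and NUP37, NUP54 and NUP210 in opposite directions. The share of all tested genes called higher under both was not computed. These joint counts therefore have no baseline, and both comparisons use the same vehicle libraries.

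Genes of the same machinery whose symbols the rule does not take were read from the same fit. Of 12 further pore proteins, 7 were called higher and 1 lower under WB436B, and 7 higher and 0 lower under siRNA, with medians of 0.39 and 0.26. Among all tested genes 24.9% were higher and 41.1% lower under WB436B, and 29.8% higher and 22.3% lower under siRNA, with medians of -0.13 and 0.06. NDC1, a membrane anchor of the pore, averaged 32.9 ± 1.51 FPKM under WB436B, 22.8 ± 0.956 FPKM under siRNA and 18.2 ± 0.472 FPKM in vehicle (SD, n = 3 each), with log2 fold changes of 0.82 and 0.31 (adjusted p = 1.78e-06 and 9.28e-04). The largest siRNA response among them was at POM121, another membrane nucleoporin (0.55, adjusted p = 2.56e-04; WB436B 0.07, adjusted p = 0.371), and at its near copy POM121C (0.39, adjusted p = 5.83e-04), a pair whose fragments may not be separable. SEC13, which the Y complex shares with vesicle coats, and AHCTF1, which seeds pores on chromatin, rose under WB436B (0.63 and 0.76, adjusted p = 5.05e-05 and 6.07e-05). The siRNA libraries of SEC13 (9.21 to 10.8 FPKM) also lay above those of vehicle (7.30 to 7.93 FPKM). For AHCTF1 the siRNA libraries (7.60 to 8.38 FPKM) overlapped those of vehicle (6.90 to 7.86 FPKM).

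The Ran cycle and export cofactors, which set the direction of transport, were mostly higher under WB436B. Of 25 genes, 15 were called higher and 3 lower under WB436B, and 10 higher and 0 lower under siRNA, with medians of 0.34 and 0.13. The 60% higher under WB436B compares with 24.9% of all tested genes, whereas the 40% higher under siRNA is nearer to the 29.8% of all tested genes. The shares called lower were 12% under WB436B and 0% under siRNA, beside 41.1% and 22.3% of all tested genes. The medians of all tested genes were -0.13 and 0.06. RANBP1, which helps to discharge Ran-GTP outside the nucleus, averaged 31.7 ± 1.45 FPKM under WB436B, 19.6 ± 0.600 FPKM under siRNA and 14.6 ± 0.591 FPKM in vehicle (SD, n = 3 each), with log2 fold changes of 1.07 and 0.40 (adjusted p = 4.83e-07 and 2.23e-04). CSE1L, the exporter that returns importin alpha to the cytoplasm, rose by 0.71 under WB436B (adjusted p = 5.51e-06) and 0.15 under siRNA (adjusted p = 0.0386). ALYREF, an adaptor of messenger RNA export, rose by 0.97 under WB436B and 0.62 under siRNA (adjusted p = 4.50e-07 and 1.20e-05). NCBP1, a cap-binding protein, rose by 0.59 under siRNA (adjusted p = 2.70e-05). It averaged 23.15 FPKM under WB436B, 21.8 FPKM under siRNA and 14.18 FPKM in vehicle, so it was not higher under siRNA alone.

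The nuclear lamina and inner nuclear membrane, are the neighbours of the pore in the envelope. Of 15 tested genes, 6 were called higher and 4 lower under WB436B, and 3 higher and 3 lower under siRNA, with medians of 0.09 and -0.03. The siRNA shares, 20% higher and 20% lower, are near those of all tested genes, 29.8% and 22.3%, and under WB436B 40% were higher and 26.7% lower, beside 24.9% and 41.1%. LMNB2, a B-type lamin, rose by 1.05 under WB436B and 0.69 under siRNA (adjusted p = 1.20e-06 and 2.99e-05), and LBR, the lamin B receptor, by 0.53 and 0.47 (adjusted p = 1.98e-05 and 8.42e-05). SYNE2, which ties the nucleus to the cytoskeleton, fell under WB436B (-1.03, adjusted p = 2.73e-06), and its partner SUN2 fell in both comparisons (-0.54 and -1.31, adjusted p = 0.0168 and 2.21e-04).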

How the data were processed

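RNA-seq of BxPC3 cells was analysed from FPKM values (fragments scaled to transcript length and library size), deposited by the authors in a table of 60564 Ensembl genes and 9 libraries. A further 3 columns of the table belong to no sample and were not used. Bowtie 0.12.2 and the genome build mm8 are named, per the submitters' processing notes. Because mm8 is a mouse build and the identifiers are human, the build is in doubt, and no coordinates come from the deposited table. Those printed or used for exon overlap come from RefSeq and GENCODE annotation, which may differ from the one behind the values. No program for FPKM, annotation or strandedness is named in the sources used here. FPKM is relative to each library's total, so a change in other genes shifts the members, and it is not a count, so no count model was used.

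The libraries of a group are called biological replicates in the labels, and p-values measure only their spread. Values were analysed as log2(FPKM + 1), with genes of at least 1 FPKM in at least 3 of 9 libraries, in 1 limma model (limma 3.58.1, R 4.3.3, trend, no block), two-sided, with Benjamini-Hochberg adjustment over 12747 genes. The fitting code was run on simulated data with independent noise and few changed genes. That simulation had no scaling differences between libraries, so it does not test the calls reported here. Depth was read from low FPKM values of genes with 1 annotated transcript, taking the most common value of a library as 1 fragment. Between 65.6% and 69.9% of low values lay within 0.2 of a whole number of fragments, so the depths are rough estimates. Exon sharing used GENCODE release 29 (96.5% of identifiers matched), and promoters from RefSeq on GRCh38.p14. A total of 17 pseudogene rows named after members reached at most 0.876 FPKM. Leaving out zeros, any pair of libraries had at most 5 genes with identical values.

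The members and the gene lists were chosen with earlier results of these data known, so lists are described by counts and medians, without a test. Values of all libraries are given for KPNB1, XPO1 and KPNA2 and, per class and comparison against vehicle, for up to 5 called members with the largest change in each direction. KPNA3, KPNA4, IPO7, NUP62 and NUP153, shown by library beyond that rule, were chosen after their values were seen. Outside the members, up to 3 genes with the smallest adjusted p were named per list and comparison against vehicle. Alternatives were other pseudocounts, filters, scalings, variance models, thresholds, a replicate block and leaving out each library.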

Additional observations from a re-analysis of the deposited data

Results flagged for a closer look

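For 3 pore proteins WB436B and STAT3 siRNA were called in opposite directions against vehicle, which is how they were picked, so the differences below describe that choice and are not separate evidence for it. NUP37, a small protein of the Y complex, differed by 1.05 on the log2 scale (WB436B minus siRNA, adjusted p = 0.000283), with every WB436B library above and every siRNA library below the vehicle libraries. NUP54, a protein of the central channel, differed by 0.49 (adjusted p = 2.50e-05) in the same arrangement. NUP210, the membrane nucleoporin, differed by -0.95 (adjusted p = 1.37e-05), with the WB436B libraries lowest and the siRNA libraries highest. The difference between the treatments stayed called under every alternative run, but the siRNA call against vehicle, on which the opposite directions rest, did not. It was lost for NUP37 without siRNA library 2, vehicle library 1 or vehicle library 2 (adjusted p = 0.0519 to 0.0562), for NUP54 with equal totals (0.0896) and for NUP210 under several alternatives (0.0511 to 0.101).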

How the results depend on the processing

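Of 39 members called under WB436B, 33 stayed called under every alternative at an adjusted p below 0.05, as did 28 of 32 under STAT3 siRNA and 22 of 30 between the treatments. Over all alternatives, 2576 of 2706 member values kept their direction and side of the threshold, 80 lost a call, 24 gained one and 26 changed sign. FPKM is relative to the library, so the scaling moves every gene: median-of-ratios scaling and quantile normalization moved the median of all tested genes by 0.13 and 0.16 for WB436B against vehicle, and by 0.19 and 0.18 for WB436B against siRNA. All tested genes called for WB436B against vehicle were 3168 higher and 5234 lower, against 4228 and 4173 after median-of-ratios scaling, or 4141 and 3696 after quantile normalization. For WB436B against siRNA they were 2554 and 5621, against 4030 and 3843, or 3613 and 3659. KPNA5, KPNA7 and NUP210L were left out by the filter of 1 FPKM. Where a value below differs from the reported one, the cause was not tested, unless a gene removed by a filter is named.

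For WB436B against vehicle, a filter of 5 FPKM left 1 pore protein called lower, not 2. The filter had removed NUP62CL, which reached at most 3.77 FPKM, so its call was not lost in a test. The 3 receptors called lower became 1 with equal totals, 0 with median-of-ratios scaling and 1 at an adjusted p below 0.01, and 1 to 3 when each library was left out in turn. The pore median of 0.45 became 0.52 with equal totals and 0.61 with median-of-ratios scaling. The receptor median of 0.61 became 0.69 and 0.65 with pseudocounts of 0.1 and 0.5, 0.51 with no filter, 0.67 with equal totals and 0.75 with median-of-ratios scaling, and ranged from 0.53 to 0.63 when each library was left out. Members that were not called changed sign as follows: NUP62 to 0.026 with median-of-ratios scaling and between -0.27 and 0.13 over libraries left out, NUP153 to 0.013 and 0.098 with equal totals and median-of-ratios scaling, and IPO13 to 0.021, 0.10 and 0.060 with equal totals, median-of-ratios scaling and quantile normalization.

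For STAT3 siRNA against vehicle, the 2 pore proteins called lower became 1 with equal totals and 0 at an adjusted p below 0.01, and 1 to 2 over libraries left out. The receptors called lower became 2 with no filter and with only the groups compared, and 1 to 2 over libraries left out. The pore median became 0.24 with equal totals and 0.13 with median-of-ratios scaling, and the receptor median 0.43 and 0.31. With median-of-ratios scaling NUP98 and NUP155 changed sign to -0.016 and -0.0083, and with equal totals IPO8 to 0.040. Over libraries left out NUP62 ranged from -0.063 to 0.30 and IPO8 from -0.050 to 0.014.

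For WB436B against siRNA, median-of-ratios scaling gave 16 pore proteins higher, not 10, and the count ranged from 8 to 12 over libraries left out. NUP88, among the 10 (adjusted p = 0.0462), lost its call with no filter (0.0998) and with only the groups compared (0.0708). It also lost the call without WB436B library 2 or 3, siRNA library 2 or 3, or any vehicle library (adjusted p = 0.0526 to 0.152). The 5 receptors called lower became 3 with equal totals, 1 with median-of-ratios scaling and 3 at an adjusted p below 0.01, and 3 to 6 over libraries left out. The pore median became 0.38 after median-of-ratios scaling, or 0.26 after quantile normalization. The receptor median became 0.16 with no filter, 0.46 after median-of-ratios scaling and 0.16 after quantile normalization, and ranged from 0.20 to 0.28 over libraries left out. With quantile normalization NUP160 and NUP205 changed sign to -0.012 and -0.099. With median-of-ratios scaling NUP62, XPO1, XPO4, XPO7, IPO8, IPO9 and TNPO3 changed sign to 0.026, 0.19, 0.024, 0.20, 0.070, 0.058 and 0.046, with XPO1 and XPO7 then called (adjusted p = 0.0153 and 0.00658). Over libraries left out NUP62 ranged from -0.43 to 0.06 and XPO1 from -0.095 to 0.0062.

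Replicate numbers are shared between the groups, and deviations of same-numbered libraries correlated by -0.085 to 0.158 over the tested genes. For STAT3 siRNA against vehicle, same-numbered pairs gave 0.042, 0.119 and 0.158, above every different-numbered pair (-0.124 to 0.014). In the comparisons with WB436B, same-numbered pairs did not stand above the others. Whether siRNA and vehicle libraries were paired was not tested, and the main model takes them as unpaired. With a replicate block, 3 receptors were lower under WB436B than under siRNA, not 5 (IPO8 and IPO9 lost). The block also ended the calls on IPO8 for WB436B (adjusted p = 0.0546), on NUP133 for siRNA (0.0510) and on NUP88 between the treatments (0.0824).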
